A study of Homo sapiens with 9 samples.

Results

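The genes described are 10 chains of receptors for cytokines and interferons: CSF2RA, CSF2RB, CSF3R, IL6R, IL6ST, IL10RA, IFNAR1, IFNAR2, IFNGR1 and IFNGR2. They were chosen by name, and all 10 were among the 26485 gene symbols of the count table. RNA was sequenced from MV4;11, a human acute myeloid leukaemia line whose MLL gene is rearranged, in 3 groups of 3 libraries. The K148R libraries came from cells with MYC carrying the K148R change of a lysine to arginine, the K148Q libraries from cells in which the same lysine is glutamine, and the parental libraries from the unmodified line. RPMI was the medium and no treatment was given. MYC is a transcription factor of growth genes. Arginine keeps the charge of lysine but cannot be acetylated, and glutamine is often used to imitate an acetylated lysine. The labels carry the codes R14, Q2 and WT for the 3 groups, and the sources used here do not say whether each mutant is 1 clone. Nor do they say that libraries of the same genotype are from separate cultures, so p-values measure the spread between these libraries, which may be technical.

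Cytokine receptors of this kind have no enzyme activity of their own. Binding of the ligand brings chains together, and Janus kinases (JAK1, JAK2, JAK3 and TYK2) held on their inner tails phosphorylate the tails and the STAT transcription factors that dock there. SOCS proteins, which STAT factors induce, shut the signal off. In myeloid cells GM-CSF and G-CSF drive survival and the making of granulocytes and macrophages, interleukin 6 and interleukin 10 shape inflammation, and interferons induce antiviral and antigen-presentation genes. Interferon receptors and IL10RA form the second class of the family, and the other 5 chains belong to the first.

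Total counts ranged from 15161009 to 18938391 in the K148R libraries, from 14477839 to 15708821 in the K148Q libraries and from 13747087 to 16636974 in the parental libraries. Values are CPM, the count relative to the TMM-scaled library size, and a gene was called changed at an adjusted p under 0.05 by edgeR's quasi-likelihood test with Benjamini-Hochberg adjustment over 12845 tested genes. K148Q replicate 3 stood apart from replicates 1 and 2, with a chi-square over its degrees of freedom of 16.5 and 16.9 set against them, and 1.32 between those 2 libraries. Its deviation from them ran with the GC content of genes (Spearman -0.72 across 12543 genes, which are not independent). Pairs of K148R libraries had chi-square values over degrees of freedom of 2.96 to 5.07, where parental pairs had 1.518 to 1.605. K148R replicates 1 and 3 deviated from the other libraries of their group with GC content in opposite directions (Spearman 0.43 and -0.41). In parental libraries that correlation was -0.036 to 0.057. MYC mRNA was 379 ± 3.38 CPM in K148R, 473 ± 29.5 CPM in K148Q and 333 ± 4.05 CPM in parental cells (SD, n = 3 each), and counts per gene carry no information on the mutation itself. Of 10 markers of the line, all but CD14 were tested, and their summed level was 2625 to 2656 CPM in K148R, 1707 to 1783 CPM in K148Q and 1207 to 1214 CPM in parental libraries. That order came from LYZ: without it the sum was 954 to 1011 CPM in K148R, 1217 to 1256 CPM in K148Q and 1046 to 1053 CPM in parental libraries. CD14, a monocyte marker, was near 0, with at most 9 counts in a library. Markers of other blood cells were low: T and NK cell markers summed to 26.9 to 28.2, 25.4 to 27.8 and 50.04 to 55.8 CPM in K148R, K148Q and parental libraries, nearly all of it NKG7, with CD3E and KLRD1 at 0. B cell markers summed to at most 7.32 CPM with MS4A1 at 0, and erythroid markers to at most 1.69 CPM. Platelet markers were almost all ITGA2B, at 16.3 to 20.3 CPM in K148R, 0.31 to 0.616 CPM in K148Q and 6.73 to 7.18 CPM in parental libraries, with PF4 at 0. Of the stromal and epithelial markers EPCAM was at 0, and PECAM1, which leukocytes also express, made up most of the sum of 183 to 194 CPM in K148R, 215 to 221 CPM in K148Q and 108 to 113 CPM in parental libraries. COL1A1 and COL1A2 were low and rose in K148R against parental cells, COL1A1 with 2.89 ± 0.784 and 0.306 ± 0.468 CPM (adjusted p = 0.000356) and COL1A2 with 1.48 ± 0.5 and 0.261 ± 0.453 CPM (adjusted p = 0.0234). Parental counts were 14, 1 and 0 for COL1A1 and 13, 0 and 0 for COL1A2, nearly all from replicate 1. Both passed the filter on low counts only with the K148R libraries, where they were high, so those calls rest on that group. KRT8 went the other way, with 1.78 ± 0.657 CPM in K148R, 0.873 ± 0.54 CPM in K148Q and 11.3 ± 0.862 CPM in parental cells. It was called lower in both mutants against parental cells (adjusted p = 9.88e-08 and 6.48e-08). The part of these markers in the values of the chains was not tested.

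All 10 chains had over 100 counts in every library and all 10 were tested. In K148R against parental cells 8 of the 10 were called, where 75.1% of all tested genes were; 7 rose and 1 fell, where 37.8% of all tested genes rose and 37.3% fell. The rises were largest for IL6R, IL10RA, CSF2RB and CSF3R, each at least 2-fold, which 14.4% of tested genes reached. In K148Q against parental cells 7 were called, beside 53.3% of all tested genes. Of these 2 rose and 5 fell, where 27% of all tested genes rose and 26.3% fell, and none of the 5 fell 2-fold, as 6.68% of tested genes did. In K148R against K148Q cells 9 were called, beside 71% of all tested genes. All 9 rose and 0 fell, where 36.6% of all tested genes rose and 34.5% fell; CSF2RB and IL10RA rose at least 2-fold, as 13.8% of tested genes did. IL6ST was the chain that was not called there by edgeR. With no adjustment over genes the count of chains lower at 0.05 was also 0, and DESeq2 and limma-voom called 0 lower. The median log2 fold change over the chains was 0.46, -0.17 and 0.72 in these comparisons in turn, and over all tested genes it was -0.004, -0.007 and 0.017. Both mutants were compared with the same parental libraries, so these comparisons are not independent. In bulk RNA, fewer cells with a transcript and less of it per cell cannot be told apart.

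**Figure D1:**
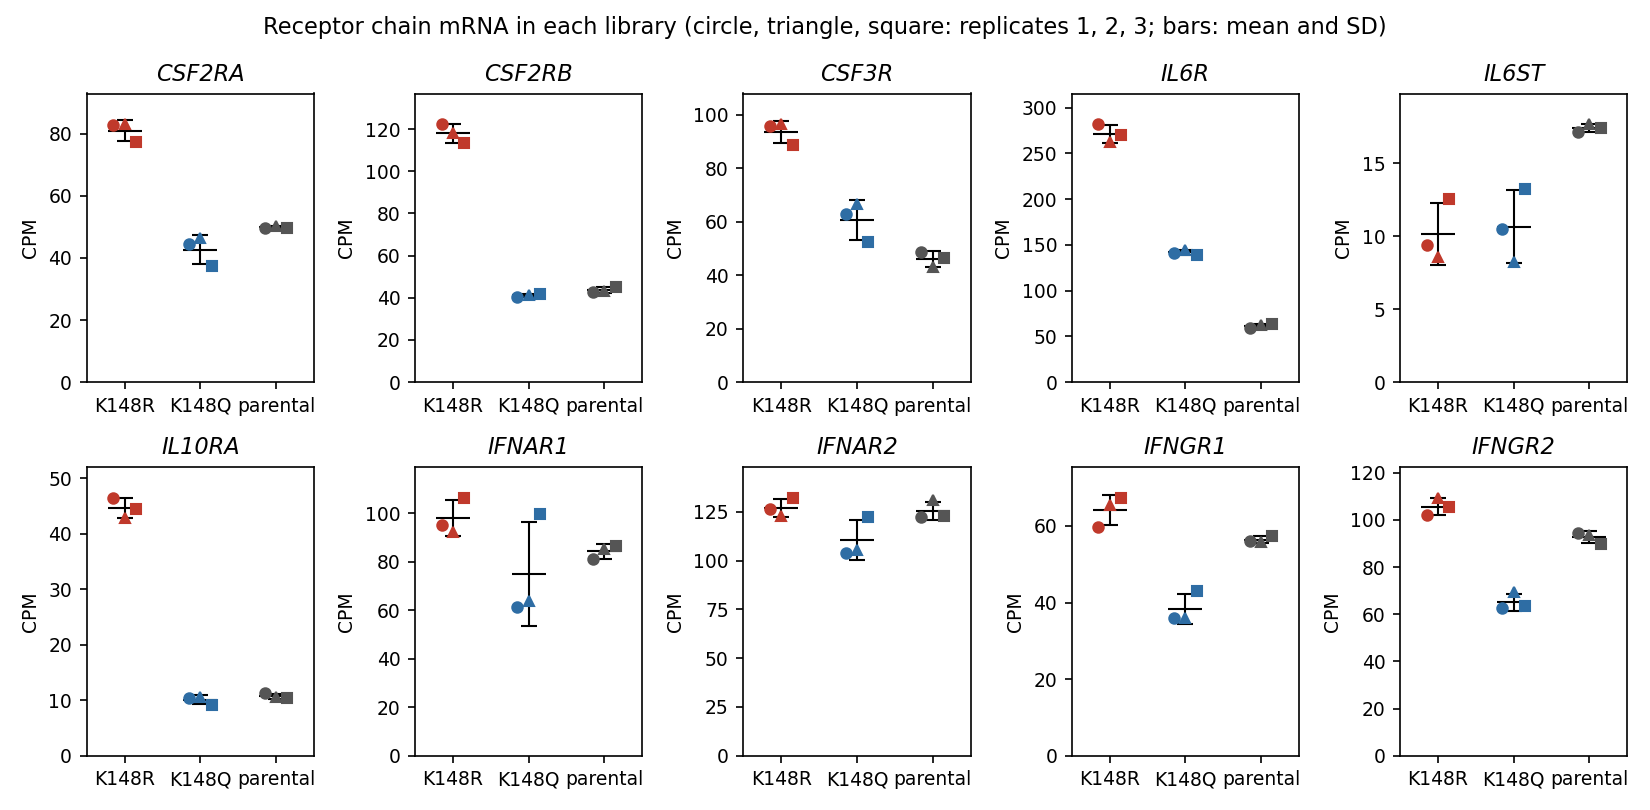
CPM of each receptor chain (vertical axes, from 0) in every library of K148R, K148Q and parental cells, with the mean and SD of each group as bars. IL6R falls into 3 levels, CSF2RB and IL10RA are high in K148R libraries only, and IL6ST is highest in the parental libraries.

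The receptor for GM-CSF pairs CSF2RA, the chain that binds GM-CSF (chromosome X, 1268800 to 1310381, positions from GENCODE v29 on GRCh38), with CSF2RB, the common beta chain that signals also for interleukins 3 and 5 (chromosome 22, 36913628 to 36940449). CSF2RB had 122, 118 and 114 CPM in K148R libraries, 40.2, 41.1 and 42.0 CPM in K148Q libraries, and 42.6, 43.0 and 45.1 CPM in parental libraries. The K148R libraries lay far above both other groups, which nearly touched. CSF2RB rose by 1.44 ± 0.0625 (SE) on the log2 scale in K148R against parental cells, with adjusted p = 2.66e-11. Set against K148Q cells the rise in K148R cells was 1.52 ± 0.0629 (adjusted p = 1.76e-11). In K148Q against parental cells it was -0.08 (95% interval -0.22 to 0.05, adjusted p = 0.289), and with the GC content correction -0.17 (adjusted p = 0.0146), a call.

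CSF2RA had 82.8, 83.0 and 77.3 CPM in K148R libraries, 44.5, 46.3 and 37.3 CPM in K148Q libraries, and 49.8, 50.2 and 49.8 CPM in parental libraries. No 2 groups overlapped, as was the case for 80.6% of all tested genes in K148R against parental, 59.5% in K148Q against parental and 71.4% in K148R against K148Q cells. CSF2RA rose in K148R cells by 0.70 ± 0.0785 on the log2 scale against parental cells (adjusted p = 1.23e-06) and by 0.93 ± 0.0794 against K148Q cells (adjusted p = 7.42e-08). It fell by 0.23 ± 0.0807 on that scale in K148Q against parental cells (adjusted p = 0.0282). That call was lost without K148Q replicate 3, where the value was -0.13 (adjusted p = 0.0789). It was also lost without each of the parental libraries in turn, where the value stayed at -0.23 to -0.22 (adjusted p from 0.0686 to 0.073). CSF2RA and IL3RA lie in the pseudoautosomal region, with a second copy on the Y chromosome, and the sources used here do not give how reads of such pairs were counted, which leaves both uncertain.

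CSF3R, the receptor for G-CSF, which pairs with itself and drives granulocyte production (chromosome 1, 36466043 to 36483278), had 95.7, 96.4 and 88.8 CPM in K148R libraries, 62.7, 66.7 and 52.3 CPM in K148Q libraries, and 48.8, 43.1 and 46.3 CPM in parental libraries. The 3 groups followed each other without overlap. It rose 2.03-fold in K148R against parental cells (log2 fold change 1.02 ± 0.0867, adjusted p = 5.45e-08), 1.32-fold in K148Q against parental cells (0.39 ± 0.0878, adjusted p = 0.00173) and 1.55-fold in K148R against K148Q cells (0.63 ± 0.0854, adjusted p = 1.06e-05).

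IL6R, which binds interleukin 6 (chromosome 1, 154405193 to 154469450), had 282, 262 and 270.2 CPM in K148R libraries, 141, 145 and 139 CPM in K148Q libraries, and 59.2, 62.1 and 63.2 CPM in parental libraries. It rose 4.41-fold in K148R against parental cells (log2 fold change 2.14 ± 0.0561, adjusted p = 1.09e-13), 2.31-fold in K148Q against parental cells (1.21 ± 0.0557, adjusted p = 3.65e-10) and 1.91-fold in K148R against K148Q cells (0.94 ± 0.0534, adjusted p = 7.09e-10). Among the chains IL6R was the one that rose at least 2-fold in K148Q against parental cells, where 4.71% of all tested genes did so.

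IL6ST encodes the chain that carries the signal of interleukin 6 and of its relatives such as LIF and oncostatin M (chromosome 5, 55935095 to 55994993). It had 9.41, 8.54 and 12.6 CPM in K148R libraries, 10.5, 8.21 and 13.2 CPM in K148Q libraries, and 17.1, 17.7 and 17.4 CPM in parental libraries. Every library of both mutants lay below every parental library, and the 2 mutants overlapped. Against parental cells IL6ST fell by 0.77 ± 0.16 on the log2 scale in K148R cells (adjusted p = 0.00048) and by 0.70 ± 0.16 in K148Q cells (adjusted p = 0.00192). With the GC content correction the K148R value was -0.37 (adjusted p = 0.00375). Between K148R and K148Q cells the difference was -0.07 (95% interval -0.42 to 0.29, adjusted p = 0.73). The annotation has a gene on the opposite strand that shares 797 exon bases with IL6ST, and a pseudogene, IL6STP1, on chromosome 17. The sources used here do not state the strand setting of the counting.

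IL10RA, the chain that binds interleukin 10 (chromosome 11, 117986348 to 118003037), had 46.5, 42.9 and 44.5 CPM in K148R libraries, 10.4, 10.6 and 9.11 CPM in K148Q libraries, and 11.2, 10.6 and 10.4 CPM in parental libraries. K148Q and parental libraries overlapped, and every K148R library was far above both. In K148R cells it rose 4.17-fold against parental cells (log2 fold change 2.06 ± 0.0907, adjusted p = 3.04e-11) and 4.44-fold against K148Q cells (2.15 ± 0.0917, adjusted p = 2.45e-11). In K148Q against parental cells the difference was -0.09 (95% interval -0.31 to 0.12, adjusted p = 0.452).

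Promoters were searched for motifs of factors known from myeloid cells and from these pathways, and a few are printed as examples of windows with and without a match. RefSeq (GRCh38.p14) gave 11 promoter windows for 8 of the 10 chains, and CSF2RB and IFNAR2 had none. The 250 bases before each start were searched on both strands for GAGGAAG, a core recognised by PU.1, the myeloid factor encoded by SPI1, for CACGTG, the E-box that MYC binds with MAX, and for TTCNNNGAA, the element of STAT factors. No window held more than 1 of the motifs. GAGGAAG stood in 5 of the 11 windows, of CSF2RA, CSF3R, IL6R, IL10RA and IFNAR1, against 11.3% of 34961 windows of all genes. In K148R against parental cells CSF2RA, CSF3R, IL6R and IL10RA, each with a match, rose, and IFNAR1, also with one, was not called. Without a match, IFNGR1 and IFNGR2 rose by 0.18 and 0.19 on the log2 scale and IL6ST fell. Whether matches go with the calls was not tested. CACGTG and TTCNNNGAA stood in 0 of the 11, against 6.35% and 6.57% of all windows. Below, the part of each window outside annotated exons is printed with GAGGAAG in capitals, and IL6ST holds none of the 3 motifs. SPI1 mRNA ranged from 239 to 275 CPM in K148R, from 219 to 271 CPM in K148Q and from 154 to 157 CPM in parental libraries.
CSF2RA (chrX:1268564-1268799, plus strand): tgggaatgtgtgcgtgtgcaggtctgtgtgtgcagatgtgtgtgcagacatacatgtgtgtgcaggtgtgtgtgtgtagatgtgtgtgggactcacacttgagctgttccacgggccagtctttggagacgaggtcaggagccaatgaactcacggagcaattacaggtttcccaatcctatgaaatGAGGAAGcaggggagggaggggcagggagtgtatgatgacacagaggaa
IL6R (chr1:154405093-154405192, plus strand): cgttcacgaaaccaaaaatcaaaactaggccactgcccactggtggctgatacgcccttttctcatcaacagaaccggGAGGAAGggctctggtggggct
IL10RA (chr11:117989695-117989944, plus strand): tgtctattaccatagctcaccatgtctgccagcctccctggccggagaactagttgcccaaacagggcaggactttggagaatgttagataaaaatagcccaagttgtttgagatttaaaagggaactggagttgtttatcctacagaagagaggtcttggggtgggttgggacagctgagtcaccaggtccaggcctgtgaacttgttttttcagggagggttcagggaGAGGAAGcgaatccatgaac
IL6ST (chr5:55994994-55995166, minus strand): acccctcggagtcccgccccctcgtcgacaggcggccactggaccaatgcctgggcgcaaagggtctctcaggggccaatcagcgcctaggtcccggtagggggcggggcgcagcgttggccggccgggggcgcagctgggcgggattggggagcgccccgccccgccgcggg

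The receptor for type I interferons joins IFNAR1 (chromosome 21, 33324477 to 33359862) and IFNAR2 (chromosome 21, 33229901 to 33265675). IFNAR1 had 95.2, 92.2 and 106 CPM in K148R libraries, 61.5, 63.8 and 99.7 CPM in K148Q libraries, and 80.9, 85.4 and 86.3 CPM in parental libraries. K148Q replicate 3 lay above all parental libraries and replicates 1 and 2 lay below them. For IFNAR1 the difference of K148Q from parental cells was -0.17 on the log2 scale (95% interval -0.51 to 0.18, adjusted p = 0.398), and without K148Q replicate 3 it was -0.42 (adjusted p = 2.94e-07). In K148R against parental cells it was 0.22 (95% interval -0.12 to 0.56, adjusted p = 0.222), where the groups did not overlap. Without K148Q replicate 3 it was 0.21 (adjusted p = 0.000399), and with the GC content correction 0.42 (adjusted p = 0.0205). IFNAR1 was higher in K148R than in K148Q cells by 0.38 ± 0.155 (adjusted p = 0.0455), a call at the edge of the threshold. Leaving out K148Q replicate 3 gave 0.63 (adjusted p = 1.39e-11), whereas leaving out K148Q replicate 1 gave 0.25 (adjusted p = 0.15).

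IFNAR2 had 127, 123 and 132 CPM in K148R libraries, 104, 106 and 123 CPM in K148Q libraries, and 123, 131 and 123 CPM in parental libraries. The K148R and parental libraries covered nearly the same range, and K148Q replicate 3 reached the lowest parental library. Between K148R and parental cells the log2 difference was 0.02 (95% interval -0.13 to 0.17, adjusted p = 0.804). IFNAR2 fell by 0.18 on the log2 scale in K148Q against parental cells (adjusted p = 0.0393) and was higher by 0.20 in K148R than in K148Q cells (adjusted p = 0.0174). The K148Q call was lost with DESeq2 at a value of -0.17 (adjusted p = 0.0549). Among the fits without a library, where values ran from -0.25 to -0.14, the call was kept without K148Q replicate 3 and without K148R replicate 3. The annotation has a transcript that reads through from IFNAR2 into IL10RB and shares 2038 exon bases with it, and an antisense gene that shares 1803.

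The receptor for interferon gamma joins IFNGR1, which binds the ligand (chromosome 6, 137197484 to 137219449), and IFNGR2, which brings in JAK2 (chromosome 21, 33402896 to 33479348). Both fell in K148Q cells. IFNGR1 had 59.6, 65.5 and 67.3 CPM in K148R libraries, 36.0, 36.0 and 42.9 CPM in K148Q libraries, and 56.1, 55.8 and 57.4 CPM in parental libraries. It fell by 0.56 ± 0.0817 on the log2 scale in K148Q against parental cells (adjusted p = 5.05e-05) and was higher by 0.74 ± 0.0813 in K148R than in K148Q cells (adjusted p = 1.1e-06). The rise in K148R against parental cells was small, at 0.18 ± 0.0794 (adjusted p = 0.0485). The call was lost without each of the parental libraries in turn, where the value was 0.17 to 0.19 (adjusted p from 0.0935 to 0.134), and without K148Q replicates 1 or 2 or K148R replicates 2 or 3 (0.15 to 0.18). It was also lost with upper-quartile scaling (0.18), library totals only (0.14) and no filter on low counts (0.16), and the value was 0.46 with the GC content correction (adjusted p = 1.84e-08).

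IFNGR2 had 102, 109 and 106 CPM in K148R libraries, 62.6, 69.2 and 63.3 CPM in K148Q libraries, and 94.5, 93.5 and 89.8 CPM in parental libraries. The groups did not overlap in any of the 3 comparisons. It fell by 0.51 ± 0.0626 on the log2 scale in K148Q against parental cells (adjusted p = 9.81e-06) and was higher by 0.70 ± 0.0624 in K148R than in K148Q cells (adjusted p = 1.16e-07). Its rise of 0.19 ± 0.0613 in K148R against parental cells (adjusted p = 0.012) was 0.004 with the GC content correction (adjusted p = 0.949). It also missed the threshold without parental replicate 3 (adjusted p = 0.0678) and without K148R replicate 2 (adjusted p = 0.0581). IFNGR2 shares 380 exon bases with TMEM50B on the opposite strand, so reads there cannot be assigned without the strand.

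**Figure D2:**
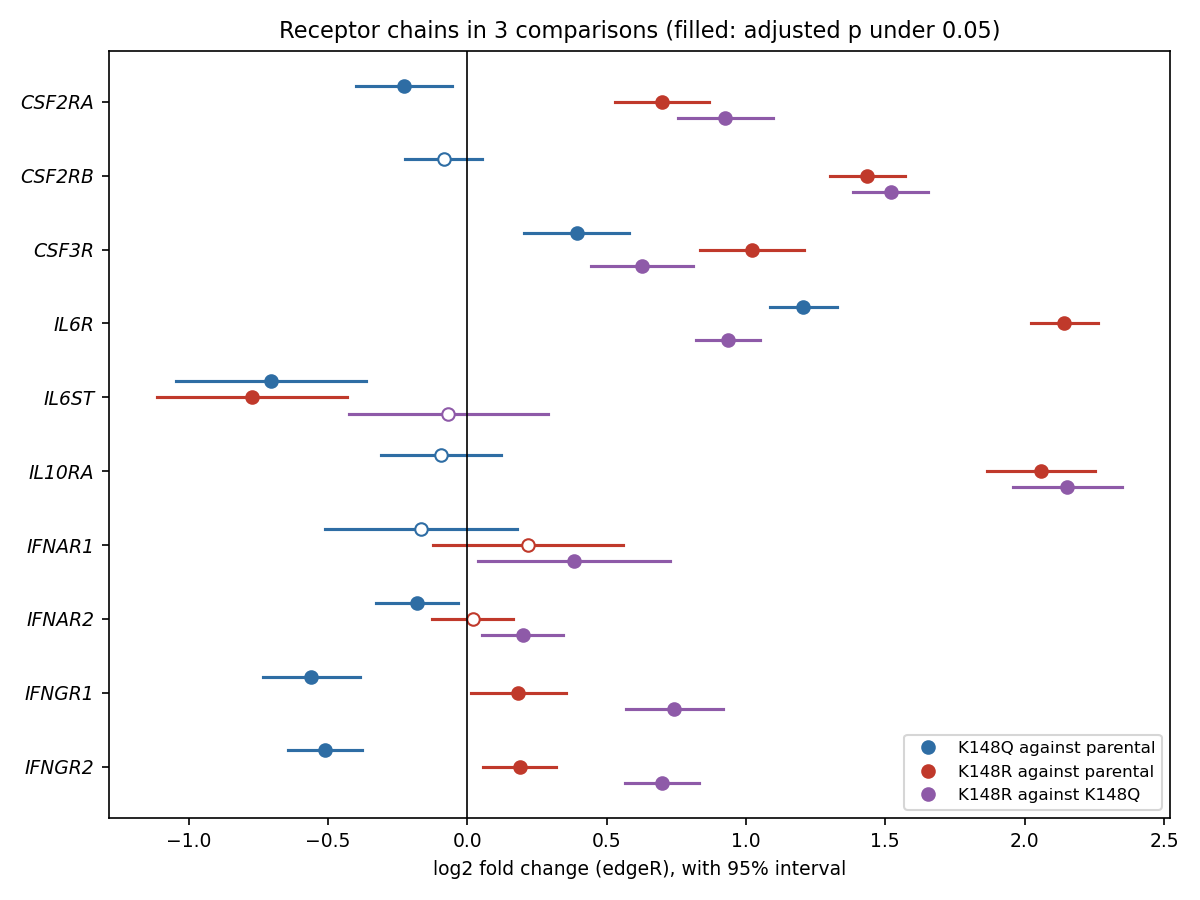
Log2 fold change of each chain (horizontal axis) with its 95% interval in 3 comparisons, filled where the adjusted p was under 0.05. IL6R lies above 0 in all 3, IL6ST lies at -0.77 and -0.70 against parental cells, and the interferon chains lie within 0.22 of 0 in K148R against parental cells.

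IFNAR2, IFNAR1 and IFNGR2 stand in a row on chromosome 21 together with IL10RB, the second chain of the interleukin 10 receptor (33266358 to 33310187), which starts between IFNAR2 and IFNAR1. Their calls differed. IL10RB had 99.1 ± 4.45 CPM in K148R, 62.8 ± 2.29 CPM in K148Q and 49.6 ± 1.21 CPM in parental cells (SD, n = 3 each). It rose by a log2 fold change of 1.00 in K148R cells (adjusted p = 2.09e-09) and 0.34 in K148Q cells (adjusted p = 0.000487), each against parental cells, and IFNGR2 fell in the second of these.

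Levels between genes are given per length, here as CPM per kb of merged exons, which allows only a rough comparison. The merged length joins the exons of all annotated transcripts of a gene, from 2.96 kb for IFNGR2 to 9.29 kb for IL6ST. Which transcripts the cells used, and the annotation used for counting, are not known here. The order between genes depends on both. In parental cells IFNGR2 was highest, at 31.3 ± 0.835 CPM per kb, followed by IFNAR2 at 27.2 ± 1.02 and IFNGR1 at 17.2 ± 0.263. IFNAR1 and CSF2RA came next, at 13.4 and 13.0 CPM per kb, with ranges that overlapped. IL6R followed at 9.53, CSF2RB at 8.71, CSF3R at 5.46, IL6ST at 1.87 and IL10RA at 1.32 CPM per kb. In K148R cells the order was different at the top, with IL6R first at 42.1 ± 1.52 CPM per kb, before IFNGR2 at 35.7 and IFNAR2 at 27.6. CSF2RB followed at 23.6, CSF2RA and IFNGR1 had overlapping ranges at 21.2 and 19.6, and IFNAR1 stood at 15.5 CPM per kb. CSF3R, IL10RA and IL6ST closed the K148R order at 11.1, 5.51 and 1.09 CPM per kb. In K148Q cells IFNAR2 had the highest mean at 24.0 ± 2.23 CPM per kb, with IL6R and IFNGR2 at 22.0 CPM per kb each. The ranges of IFNAR2 and IFNGR2 overlapped, and IFNAR2 reached 26.6 CPM per kb in K148Q replicate 3 but 22.6 and 22.9 in replicates 1 and 2. IFNAR1, IFNGR1 and CSF2RA lay at 11.9, 11.7 and 11.2 with overlapping ranges, CSF2RB at 8.22 and CSF3R at 7.19. IL10RA and IL6ST overlapped at the bottom, at 1.24 and 1.14 CPM per kb.

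**Figure D3:**
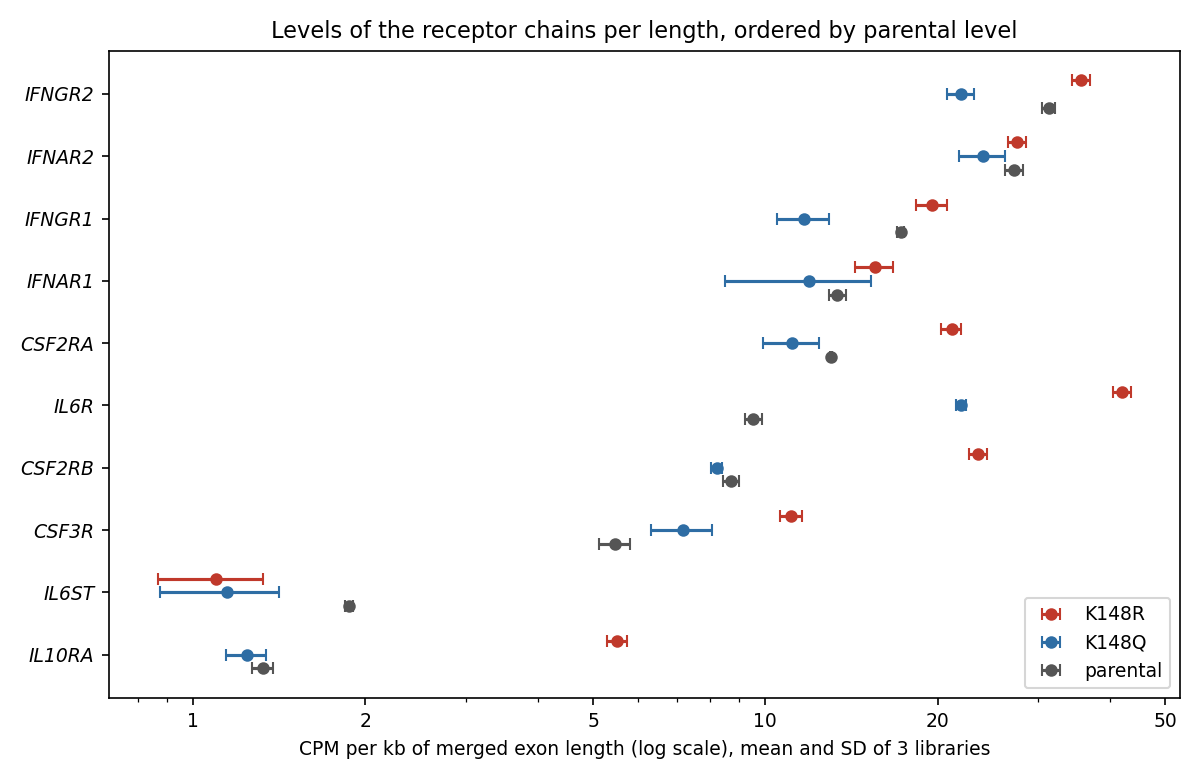
Level of each chain per kb of merged exon length (horizontal axis, log scale) as mean and SD of 3 libraries, with genes ordered by their parental level. IL6R moves from the middle of the parental order to the top of the K148R order, and IL6ST and IL10RA lie at or under 5.51 CPM per kb in all 3 groups.

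The chains of a receptor were also set against each other within each library. IL6R exceeded IL6ST per length by 43.1, 44.2 and 30.9 times in K148R libraries, 19.4, 25.4 and 15.2 times in K148Q libraries, and 4.97, 5.07 and 5.23 times in parental libraries, without overlap between groups. The ratio of CSF2RB to CSF2RA was 1.13, 1.09 and 1.13 in K148R libraries, 0.693, 0.68 and 0.861 in K148Q libraries, and 0.655, 0.657 and 0.694 in parental libraries. There the K148R libraries stood above the others, and the K148Q and parental ranges overlapped. IL10RA to IL10RB stood at 0.253 ± 0.01 in K148R, 0.09 ± 0.00952 in K148Q and 0.121 ± 0.00238 in parental cells (SD, n = 3 each), and no groups overlapped. IFNAR1 to IFNAR2 was 0.563 ± 0.0222, 0.49 ± 0.0916 and 0.492 ± 0.0194 in K148R, K148Q and parental cells, with K148Q replicate 3 above every other library at 0.596 and the K148R libraries above the parental ones. IFNGR1 to IFNGR2 was 0.549 ± 0.0244, 0.534 ± 0.0724 and 0.551 ± 0.0231 in the same order, with ranges that overlapped. Permuting 3 libraries against 3 gives no two-sided p below 0.1, so these ratios are given without a test. They use mRNA per annotated length and do not measure protein.

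**Figure D4:**
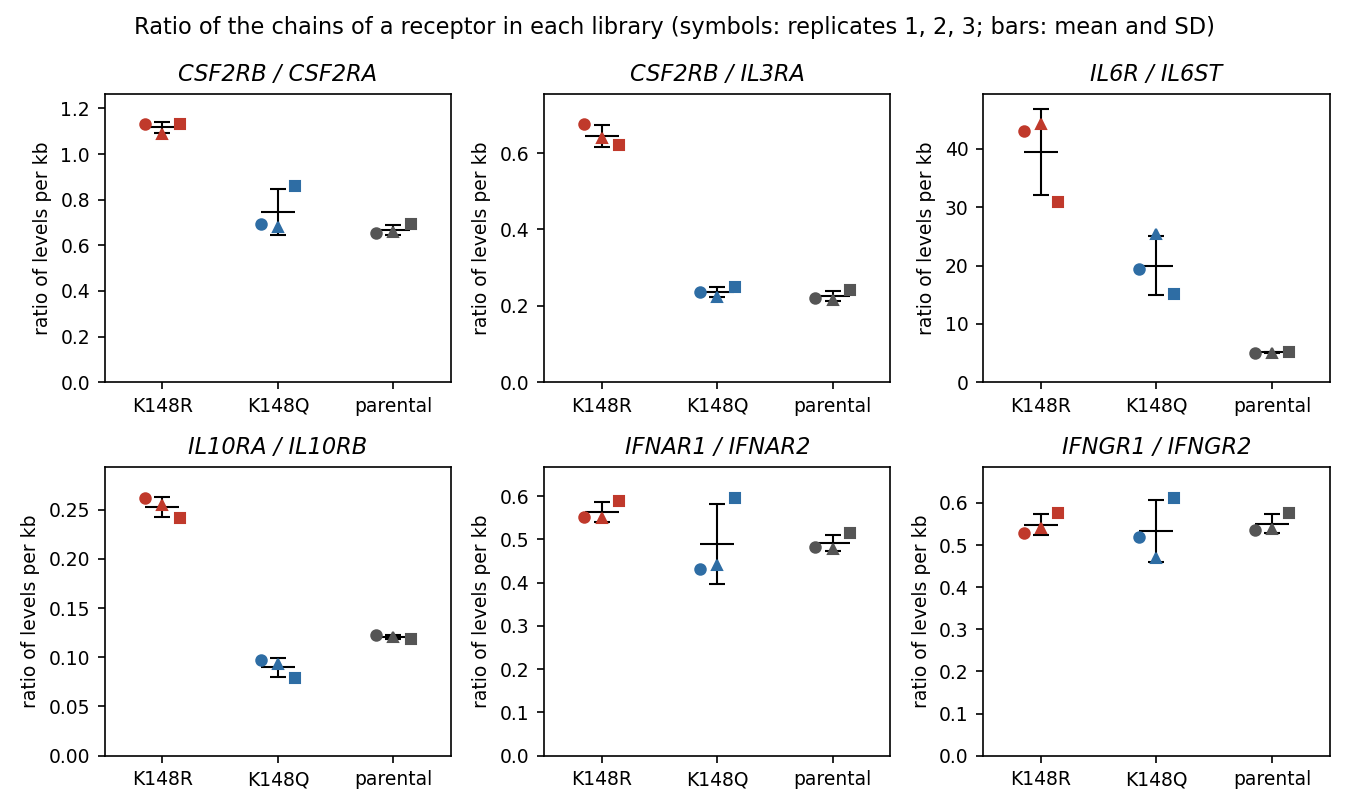
Ratio of the levels per kb of paired chains (vertical axes, from 0) in every library, with the mean and SD of each group as bars. IL6R to IL6ST was 30.9 to 44.2 in K148R, 15.2 to 25.4 in K148Q and 4.97 to 5.23 in parental libraries, while IFNGR1 to IFNGR2 stayed between 0.469 and 0.612 in all 9 libraries.

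Of 12 partner chains that share these ligands or receptors, 5 were tested. Of these 2 rose and 0 fell in K148R against parental cells, 2 rose and 1 fell in K148Q against parental cells, and 2 rose and 0 fell in K148R against K148Q cells. The share that rose among all tested genes was 37.8%, 27% and 36.6% in turn, and the share that fell was 37.3%, 26.3% and 34.5%. IL3RA, which pairs with CSF2RB to bind interleukin 3, had 62.5 ± 0.557 CPM in K148R, 59.6 ± 2.75 CPM in K148Q and 66.2 ± 2.44 CPM in parental cells and passed in none of the 3 comparisons (adjusted p from 0.0597 to 0.35). CSF2RB to IL3RA per length was 0.645 in K148R, 0.236 in K148Q and 0.225 in parental cells. IL27RA, which pairs with IL6ST, fell in K148Q against parental cells, with 12.7 ± 1.54 CPM and 18.5 ± 0.846 CPM (adjusted p = 0.00108), and was higher in K148R than in K148Q cells (20.4 ± 2.17 CPM in K148R, adjusted p = 6.45e-05). IL11RA was low and rose in K148R cells (4.62 ± 0.934 CPM) and in K148Q cells (4.39 ± 0.682 CPM) against parental cells (2.67 ± 0.226 CPM), with adjusted p = 0.00186 and 0.00664. LIFR, IL20RA and IL22RA1 were at 0 counts in all 9 libraries.

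Transcripts of the ligands were scarce. Of 22 ligand genes 15 had 0 counts in all 9 libraries, among them CSF2, CSF3, IL3, IL6, IL10, IFNG and the IFNA genes listed. A count of 0 allows up to 0.0609 CPM in K148R, 0.0651 CPM in K148Q and 0.0636 CPM in parental cells (3 counts over a group), which covers counting error only. IFNB1 had 2 counts, both in a K148R library. OSM, which encodes oncostatin M, was one of the 3 tested ligands. It rose in K148R cells (5.02 ± 0.971 CPM, adjusted p = 0.00759) and in K148Q cells (8.39 ± 1.62 CPM, adjusted p = 3.62e-05) against parental cells (3.10 ± 0.681 CPM). LIF fell in both mutants, with 0.227 ± 0.108 CPM in K148R, 0.305 ± 0.138 CPM in K148Q and 1.05 ± 0.217 CPM in parental cells (adjusted p = 0.000336 and 0.00251). EBI3, a subunit of interleukin 27, also fell in both, with 0.846 ± 0.419 CPM in K148R, 0.149 ± 0.0912 CPM in K148Q and 2.92 ± 0.186 CPM in parental cells (adjusted p = 6.38e-05 and 1.25e-06). LIF had 4, 5 and 2 counts in K148R, 7, 4 and 3 in K148Q and 15, 18 and 16 in parental libraries. EBI3 had 14, 7 and 21, then 2, 1 and 4, then 48, 43 and 46 counts in that order. Both passed the filter on low counts through the parental libraries, where they were high, so these calls rest on that group.

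Behind the receptors, JAK1, JAK2 and TYK2 rose in both mutants against parental cells and JAK3 fell. JAK1, used by the interferon, interleukin 6 and interleukin 10 receptors, had 269.8 ± 6.96 CPM in K148R, 175 ± 5.31 CPM in K148Q and 125 ± 4.56 CPM in parental cells (adjusted p = 7.1e-11 and 2.94e-06 against parental). JAK2, used by the GM-CSF and G-CSF receptors, had 36.3 ± 2.34 CPM in K148R, 32.9 ± 6.53 CPM in K148Q and 23.5 ± 1.85 CPM in parental cells (adjusted p = 0.000259 and 0.00382). JAK3, which serves the receptors of the common gamma chain and none of the 10 chains, had 11, 8 and 12 counts in K148R libraries, 3, 0 and 0 counts in K148Q libraries, and 133, 120 and 152 counts in parental libraries. The count ratio of parental over K148Q cells was 132 (95% interval 44.8 to 642, counting error only). JAK3 passed the filter on low counts through the parental libraries, where it was high.

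Of the 6 tested genes in a list of STAT factors with IRF9, all 6 rose in K148R against parental cells, 4 of them at least 2-fold, and 5 rose in K148Q against parental cells, none of them 2-fold. Over all tested genes 37.8% rose in K148R against parental cells, 14.4% at least 2-fold, and 27% rose in K148Q against parental cells. The median log2 fold change was 1.26 in the first of these and 0.43 in the second. STAT2 and IRF9, parts of the complex that type I interferon activates, were at 223 ± 4.04 and 64.9 ± 1.98 CPM in K148R cells, 63.6 ± 5.05 and 14.7 ± 1.48 CPM in K148Q cells, and 50.7 ± 4.31 and 10.1 ± 1.10 CPM in parental cells. Their log2 fold changes in K148R against parental cells were 2.14 and 2.68 (adjusted p = 2.11e-12 and 4.46e-12), beside 0.22 and 0.02 for IFNAR1 and IFNAR2. STAT3, the main STAT factor of the interleukin 6, interleukin 10 and G-CSF receptors, rose by 0.68 in K148Q against parental cells (77.9 ± 2.28 and 48.7 ± 1.99 CPM, adjusted p = 3.36e-07), and STAT5A, that of the GM-CSF receptor, by 0.66 (50.9 ± 5.57 and 32.2 ± 2.35 CPM, adjusted p = 2.77e-05).

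A list of 20 genes was drawn up as inhibitors of the pathway, and other roles of its genes, PTPN11 among them, were left aside. Of these 20 genes 9 rose and 3 fell in K148R against parental cells, and 6 rose and 3 fell in K148Q against parental cells. In K148R against K148Q cells 8 rose and 2 fell. Of all tested genes 37.8%, 27% and 36.6% rose in these comparisons in turn, and 37.3%, 26.3% and 34.5% fell. SOCS3, which binds IL6ST and CSF3R to end their signal, had 30.6 ± 2.74 CPM in K148R, 8.21 ± 0.999 CPM in K148Q and 6.78 ± 0.599 CPM in parental cells. SOCS3 rose by 2.18 on the log2 scale in K148R against parental cells, with adjusted p = 3.43e-10, and by 1.90 when set against K148Q cells (adjusted p = 1.54e-09). SOCS1, which blocks Janus kinases at interferon receptors, fell in K148Q against parental cells (2.67 ± 0.117 and 5.15 ± 1.28 CPM, adjusted p = 0.000946). At 9.39 ± 0.789 CPM in K148R cells it was higher there than in K148Q cells (adjusted p = 3.3e-07). PTPRC, the phosphatase CD45, rose to 316 ± 14.4 CPM in K148R cells, against 86.3 ± 1.58 CPM in parental cells (adjusted p = 8.68e-12). It also rose in K148Q against parental cells, to 107 ± 12.3 CPM (adjusted p = 0.00289). SOCS4 fell in K148R against parental cells (19.4 ± 1.99 and 33.2 ± 0.887 CPM, adjusted p = 0.0047), and so did PTPN11 (205 ± 4.04 and 315 ± 9.22 CPM, adjusted p = 5.62e-07). PTPN11 also fell in K148Q against parental cells, to 249 ± 24.9 CPM (adjusted p = 0.000468). SOCS2, which STAT factors of the GM-CSF receptor induce, rose in K148Q against parental cells (41.6 ± 7.17 and 31.9 ± 0.546 CPM, adjusted p = 0.00911). It was lower in K148R than in K148Q cells (24.4 ± 2.41 CPM in K148R, adjusted p = 2.03e-05). SOCS7 rose (47.4 ± 2.84 and 37.6 ± 2.19 CPM, adjusted p = 0.00421) and CBL fell (85.9 ± 3.43 and 116 ± 6.23 CPM, adjusted p = 3.62e-05) in K148Q against parental cells. SOCS7 also rose in K148R against parental cells, to 45.7 ± 4.41 CPM (adjusted p = 0.00803).

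**Figure D5:**
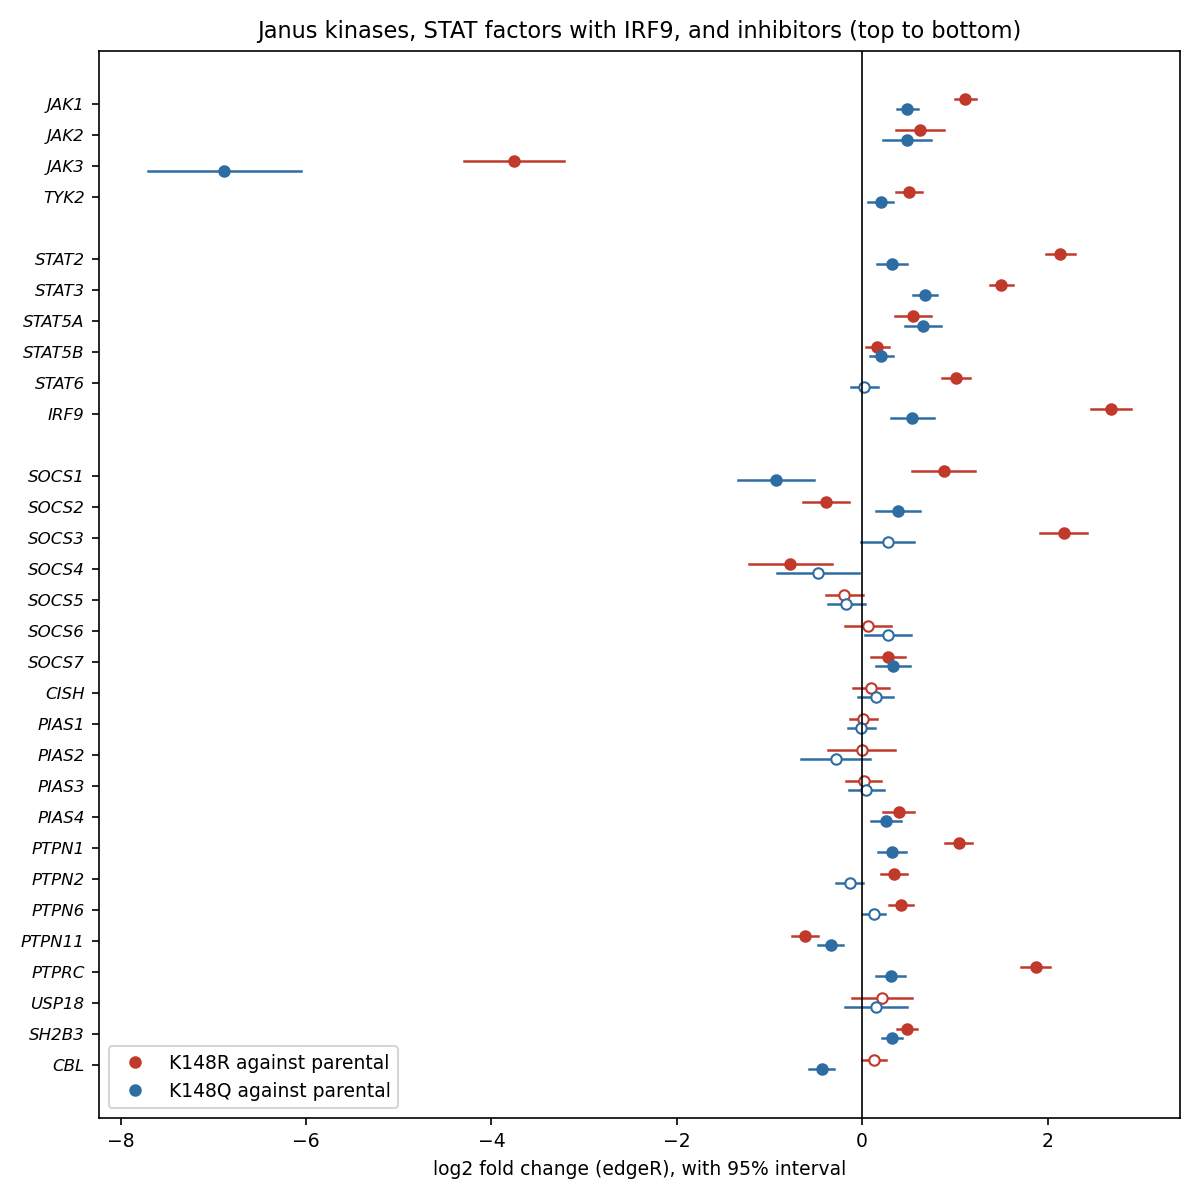
Log2 fold change against parental cells (horizontal axis) with 95% intervals for tested Janus kinases, STAT factors with IRF9, and genes listed as inhibitors, filled where the adjusted p was under 0.05. All 6 genes of the STAT group, IRF9 included, lie above 0 in K148R cells, and the fitted value of JAK3 in K148Q cells rests on 3 counts.

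Of the 9 tested markers of the myeloid line 6 rose and 3 fell in K148R against parental cells, 4 rose and 2 fell in K148Q against parental cells, and 5 rose and 2 fell in K148R against K148Q cells. Among all tested genes 37.8%, 27% and 36.6% rose in these comparisons in turn, and 37.3%, 26.3% and 34.5% fell. CSF1R, the macrophage growth factor receptor, was at 168 ± 4.26 CPM in K148R, 67.6 ± 9.06 CPM in K148Q and 40.2 ± 3.31 CPM in parental cells, and LYZ at 1649 ± 21.5, 491 ± 64.5 and 161 ± 2.88 CPM in the same order. FLT3, a receptor of progenitors, was at 301 ± 2.26 CPM in K148R, 676 ± 28.0 CPM in K148Q and 652 ± 7.97 CPM in parental cells. HOXA9, a homeobox gene of progenitors and MLL leukaemias, rose in K148R against parental cells, with 10.8 ± 0.939 and 7.27 ± 0.965 CPM (adjusted p = 0.00201). MPO and MEIS1 fell in that comparison, MPO with 2.88 ± 0.386 and 7.52 ± 0.648 CPM (adjusted p = 1.14e-06) and MEIS1 with 59.7 ± 0.143 and 75.8 ± 2.2 CPM (adjusted p = 0.000192). Both also fell in K148Q against parental cells, to 3.90 ± 0.434 CPM for MPO (adjusted p = 9.86e-05) and 52.8 ± 3.03 CPM for MEIS1 (adjusted p = 1.1e-05). The part of such shifts in the values of the receptor chains was not tested. Within K148Q cells, replicate 3 differed from the mean of replicates 1 and 2 by 0.67 on the log2 scale for IFNAR1, 0.50 for IL6ST, 0.25 for IFNGR1 and 0.23 for IFNAR2, and by -0.20 for IL10RA, -0.28 for CSF2RA and -0.30 for CSF3R. CSF2RB, IL6R and IFNGR2 lay between -0.06 and 0.05. The exons of the first 4 of these had a GC content of 42.3%, 36.6%, 40.2% and 47.0%, and those of the other 6 had 48.9% to 55.6%.

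Genes most like each chain were found by the Pearson correlation of log2 CPM over the 9 libraries, which share 3 genotypes, so that values near 1 are common. For IL10RA 149 tested genes exceeded 0.99, for CSF2RB 117 and for IL6R 95. Such genes can differ in level, and LGALS3 and CECR7 averaged 6.71 and 4.94 CPM in K148R, were at 0 in K148Q and averaged 0.0199 CPM each in parental cells. Both passed the filter through K148R libraries alone, so their correlation with CSF2RB rests on that group. GNA12 and PRCP were most like IL10RA (0.9994 and 0.9992), LGALS3 and CECR7 most like CSF2RB (0.999 and 0.9981), and TMEM233 and FRY most like IL6R (0.9994 and 0.9991). CSF3R was most like C1orf122 (0.9965) and TBC1D9B (0.9949), and CSF2RA most like CSNK1G2 (0.9961) and HCST (0.9959). SCAMP5 (0.995) and EPB41L4A-AS1 (0.994) led for IFNGR2, and ARID4B (0.993) and AKIRIN1 (0.9921) for IFNGR1. No gene exceeded 0.99 for IFNAR1, IFNAR2 or IL6ST. REST (0.9872) and LRIF1 (0.9845) were nearest to IFNAR1, C16orf72 (0.9802) and SLC4A7 (0.9729) to IFNAR2, and SNORD45B (0.9827) and ZNF736 (0.9703) to IL6ST. SNORD45B was low, averaging 0.491 CPM in K148R, 0.490 CPM in K148Q and 1.76 CPM in parental cells. Its correlation therefore leans on the parental libraries.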

How the data were processed

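The members and gene lists were chosen with earlier results of these data known. The authors deposited raw read counts per gene symbol, without normalisation. Per the submitters' processing notes, the build was GRCh38 and the tools were featureCounts 1.5.2, HISAT2 2.0.5 and FastQC 0.11.7. The sources used here give no options, strand setting or annotation. Groups came from the genotype in the labels. Genes were filtered with filterByExpr, which left 12845, scaled with TMM and tested with edgeR 4.0.16 in R 4.3.3 (robust quasi-likelihood, all 9 libraries, a term per genotype, no replicate term). The fit was tested on simulated counts with a common spread for all genes, no GC effect and no outlying library. Recovery of calls was judged there only for changes of at least 2-fold, so that test does not cover smaller changes or such library differences. Positions and merged exon lengths came from GENCODE v29, and promoters from RefSeq. Named genes were the 10 chains, up to 2 called genes per list, direction and comparison, the 2 genes most like each chain, listed neighbours of the chains, and MYC; other genes, such as the cell markers, were named after their values were seen. Alternatives were DESeq2 1.42.0, limma-voom (limma 3.58.1), other scalings and filters, fits of 2 genotypes, a replicate block, a correction for GC content, and leaving out each library. Certain listed genes are not reported here and were left out of list counts and sums.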

Additional observations from a re-analysis of the deposited data

How the results depend on the processing

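Of 600 values of the chains under alternatives, those without a library kept direction and side of the threshold in 233 of 270 cases, and the others in 307 of 330. For the other named genes this held in 395 of 396 and 480 of 482 cases. The number of chains that fell in K148Q against parental cells was 5 in the fit of all libraries and 3 to 6 over the alternatives. It was 3 when only these 2 genotypes were fitted, and 3 to 5 when a library was left out (3 without each parental library in turn). The number that rose in K148R against parental cells was 7 in the fit of all libraries and 5 to 8 over the alternatives. In K148R against K148Q cells it was 9, and 7 to 9 over the alternatives. Changes of sign were limited to values that were not called. For IFNAR2 in K148R against parental cells these were -0.026 with library totals only, -0.004 with no filter on low counts, and -0.006, -0.001 and -0.008 without parental replicate 1, parental replicate 3 and K148R replicate 3 (range without a library -0.008 to 0.042). For IL6ST in K148R against K148Q cells these were 0.12 with the GC content correction, 0.12 with that and the replicate block, and 0.10 and 0.04 without K148Q replicate 3 and K148R replicate 2 (range -0.25 to 0.10). The causes were not tested. The replicate block alone changed no call of the 10 chains, and it moved the count of all called genes in K148Q against parental cells to 7262 from 6848. Deviations of same-numbered libraries from their group means correlated at -0.024 to 0.269 and did not pass 0.1 in each pair, so the numbers were not taken to pair the samples; K148R and K148Q libraries with numbers 1 and 3 correlated at 0.14 and 0.269. MYC in K148R against parental cells was not called with the GC content correction (0.01, adjusted p = 0.709), and OSM in that comparison missed the threshold without parental replicate 3 (adjusted p = 0.0501). IFNAR1 in K148R against K148Q cells passed in the edgeR fit of all libraries. It missed without each of the parental libraries in turn, K148Q replicates 1 or 2, or K148R replicates 1 or 3 (0.25 to 0.40). It also missed with library totals only (adjusted p = 0.103), no filter on low counts (adjusted p = 0.16) and only the 2 genotypes (adjusted p = 0.106). IFNAR2 in that comparison missed without K148Q replicates 1 or 2 or K148R replicate 3 (0.15 to 0.17). Library totals only (adjusted p = 0.0931) and only the 2 genotypes (adjusted p = 0.0924) also lost that call. Each chain had over 100 counts per library, the fewest being 120 for IL6ST in K148Q replicate 2. The part of depth in the calls of the chains was not tested. Most ligands had too few counts to be tested.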
